A study of Mus musculus with 4 samples.

Results

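Tmem87a, Spint1, Cdk5rap1, Pltp and Src are 5 mouse genes on chromosome 2 whose transcripts differed between macrophages lacking Hes1 and Hey1 and wild-type macrophages. They were picked from these same arrays for that difference, and neither targeted gene lies on their chromosome, since Hes1 is on chromosome 16 and Hey1 on chromosome 3. All probe sets annotated to only these symbols were taken, 7 of the 45101 on the array, for 5 of the 18193 genes with a probe set of their own. Each probe set combines several short probes for the same transcript. The genotype differences of the 5 genes are therefore a description of how they were chosen, and no test is attached to them.

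The arrays measured total RNA of bone marrow-derived macrophages (BMDMs), derived from marrow precursors that were cultured for 5 days in medium with 10% L929 supernatant, a source of macrophage colony-stimulating factor. There were 4 groups with 1 array each. They were double knockout (DKO) cells for Hes1 and Hey1 without treatment, wild-type (WT) cells without treatment, DKO cells exposed to 2 ng/ml lipopolysaccharide (LPS) for 3 h, and WT cells exposed to LPS in the same way. All cells were of C57BL/6 background. The labels do not say how the knockout alleles were made, in which cells they act, or how many mice gave marrow, and the ages of the mice are not given in the sources used here. With 1 array per group there are no replicates, no difference has a replicate check, so neither p-values nor errors are printed. The number of arrays limits the precision.

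Intensities are in the deposited linear units. Values under a floor of 52.9 units, the median of all probe sets that are not controls, were raised to it ahead of the log2 step, so a difference with 1 side under the floor is a bound. A gene was called different where 2 arrays differed by at least 2-fold. The macrophage label was checked against 8 macrophage markers, and all 8, among them Adgre1, Csf1r, Cd68 and Lyz2, lay above the floor on every array. Markers of dendritic cells (5 measured), B cells (4) and stroma (5) all lay under the floor on every array. Of 5 T and NK cell markers 4 did so, and Cd8a passed the floor on 2 arrays. Of 4 erythroid markers 1 lay under it on every array. Tfrc, of that list, gave 1872 units in untreated DKO cells against 2089 in untreated WT cells. The progenitor, neutrophil, epithelial and osteoclast lists also held genes above the floor, and their values are given further below. Hes1 gave 2.14 units in untreated DKO cells against 45.4 in untreated WT cells, and 5.80 against 26.7 with LPS. Hey1 gave 9.17 against 57.2 untreated, and 10.2 against 17.3 with LPS, so that only 1 of these 8 values passed the floor and the targeted genes check the labels weakly.

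The 5 genes act in different parts of the cell. Tmem87a encodes a membrane protein of the Golgi that spans the membrane several times and is linked in human cells to the return of cargo from endosomes to the Golgi. Spint1 encodes HAI-1, a membrane-bound Kunitz-type inhibitor of the serine proteases matriptase and hepatocyte growth factor activator. Cdk5rap1 encodes a methylthiotransferase that modifies mitochondrial transfer RNAs. Pltp encodes a secreted protein that moves phospholipids between lipoproteins, belongs to the family of the LPS-binding protein, and is a known target of the sterol-sensing LXR receptors. Src encodes a cytoplasmic tyrosine kinase that acts downstream of integrins and of many surface receptors. HES and HEY proteins are repressors that bind DNA at E boxes, such as CACGTG and CACGCG, and HES proteins also at N boxes, CACNAG.

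The promoter windows are shown because they are the stretches in which those repressor sites were looked for. RefSeq windows of build GRCm38.p6 run from 250 bases before to 50 bases after the annotated start of each gene, and all 5 genes had 1 window. The 3 motifs were searched on both strands, and they cannot occupy the same 6 letters. Capitals mark the matches, and sequences run 5′ to 3′ along the gene. Spint1 (chr2:119237110-119237409, plus strand), Tmem87a (chr2:120404067-120404366, minus strand) and Src (chr2:157424043-157424342, plus strand) held matches.
Spint1: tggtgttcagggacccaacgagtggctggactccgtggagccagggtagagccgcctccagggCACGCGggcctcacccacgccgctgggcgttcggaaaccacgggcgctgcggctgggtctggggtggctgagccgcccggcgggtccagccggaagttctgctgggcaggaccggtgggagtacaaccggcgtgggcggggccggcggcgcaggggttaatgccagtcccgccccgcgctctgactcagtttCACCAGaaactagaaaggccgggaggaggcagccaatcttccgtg
Tmem87a: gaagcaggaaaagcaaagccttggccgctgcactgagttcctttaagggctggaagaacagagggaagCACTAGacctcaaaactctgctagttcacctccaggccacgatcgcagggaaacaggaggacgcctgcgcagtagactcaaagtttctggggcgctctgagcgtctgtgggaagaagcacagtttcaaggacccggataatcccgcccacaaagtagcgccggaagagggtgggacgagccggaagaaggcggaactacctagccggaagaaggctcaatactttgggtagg
Src: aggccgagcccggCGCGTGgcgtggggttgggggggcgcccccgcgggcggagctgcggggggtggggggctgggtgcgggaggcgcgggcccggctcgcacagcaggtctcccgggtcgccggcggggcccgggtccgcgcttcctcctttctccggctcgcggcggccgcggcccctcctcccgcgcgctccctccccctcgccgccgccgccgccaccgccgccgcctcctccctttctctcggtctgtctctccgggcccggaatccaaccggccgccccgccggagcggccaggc

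Spint1 held CACGCG at base -187 from the start and an N-box match, CACCAG, at base 6 after it. Tmem87a held the N-box match CACTAG at base -182. Src held CACGCG on the opposite strand, read as CGCGTG, at base -237. The windows of Cdk5rap1 and Pltp held none of the 3 motifs, and none of the 5 windows held CACGTG. Among 32851 RefSeq windows of this length, 7.15% held CACGTG, 9.27% CACGCG, 42.5% CACNAG and 51.8% any of the 3, against 0, 2, 2 and 3 of the 5 genes. The Src window is 82.3% G and C, the Spint1 window 69.7%, the Pltp window 59.0%, the Tmem87a window 56.0% and the Cdk5rap1 window 54.7%, against a median of 52.7% over all windows. Matches of 6 letters describe these windows and do not show binding.

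Tmem87a differed most between the genotypes. Its single probe set gave 1078 units in untreated DKO cells against 65.5 in untreated WT cells, and 865 in DKO cells with LPS against 87.5 in WT cells with LPS. Both DKO arrays were bright, and both WT arrays read just above the floor. DKO cells were 16.5-fold higher without LPS and 9.89-fold higher with LPS. These were the largest differences of either direction among the 10421 genes above the floor on both untreated arrays and among the 10308 above it on both LPS arrays. Because the WT values lie so near the floor, the size of the fold is less certain than its direction. LPS itself changed Tmem87a by less than 2-fold in either genotype, with a log2 difference of -0.32 in DKO cells and 0.42 in WT cells.

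Spint1 was lower in DKO cells by the same factor in both states. Its probe set gave 118 units in untreated DKO cells against 494 in untreated WT cells, and 70.9 in DKO cells with LPS against 297 in WT cells with LPS. The log2 differences were -2.07 without and -2.07 with LPS, or 4.20-fold and 4.19-fold lower. With LPS this was the lowest difference of all 10308 genes measured on both arrays, and without LPS number 3 from the lowest of 10421. The reading with LPS was 1.66-fold lower than without in DKO cells and likewise 1.66-fold lower in WT cells, short of the 2-fold mark, so that the LPS effects of the 2 genotypes were 0.0051 apart on the log2 scale.

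Cdk5rap1 showed the same pattern at a smaller size. It gave 351 units in untreated DKO cells against 1074 in untreated WT cells, and 240.1 in DKO cells with LPS against 776 in WT cells with LPS. Both DKO values lay well under both WT values. The log2 differences were -1.61 without LPS and -1.69 with LPS, which is 3.06-fold and 3.23-fold lower in DKO cells. With LPS the reading was 1.46-fold lower than without in DKO cells and 1.39-fold lower in WT cells.

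Pltp was higher in DKO cells on both of its probe sets. The brighter probe set gave 13416 units in untreated DKO cells against 6088 in untreated WT cells, and 12919.6 against 5357 with LPS. The dimmer probe set gave 8557 against 3509 without LPS and 6886 against 3409.6 with LPS. DKO cells were thus 2.20-fold higher on the brighter and 2.44-fold higher on the dimmer probe set without LPS. With LPS the same probe sets gave 2.41-fold and 2.02-fold. Every DKO value was above every WT value of the same probe set. LPS moved neither probe set by more than 1.24-fold in either genotype.

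Src passed 2-fold between the genotypes without LPS and not with it, and of its 2 probe sets the brighter one passed. That probe set gave 98.2 units in untreated DKO cells against 307 in untreated WT cells, and 723 in DKO cells with LPS against 679 in WT cells with LPS. DKO cells were 3.12-fold lower without LPS (log2 difference -1.64) and within 1.07-fold of WT with LPS. The dimmer probe set gave 34.1 units, under the floor, in untreated DKO cells against 76.4 in untreated WT cells, which bounds the difference at 1.44-fold or more. With LPS it gave 307 in DKO cells against 319.9 in WT cells. Both probe sets therefore read lower in DKO cells at rest and nearly level after LPS.

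**Figure D1:**
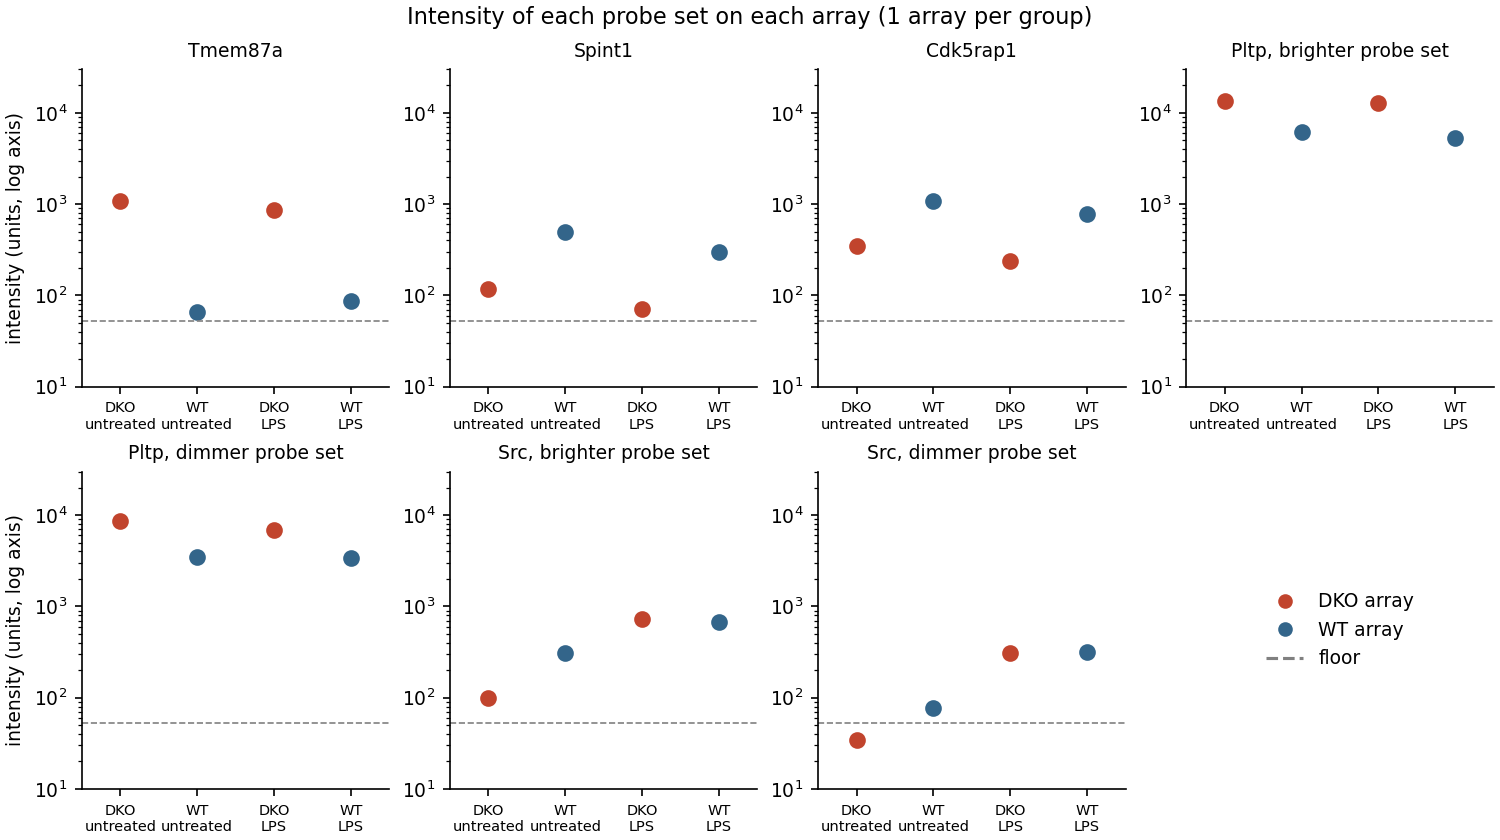
Intensity (units, log axis) of each of the 7 probe sets on the 4 arrays, DKO in red and WT in blue, 1 point per array, with the floor of 52.9 units dashed. Tmem87a and Pltp are higher on the DKO arrays, Spint1 and Cdk5rap1 lower, and Src is lower in DKO cells only without LPS.

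Counted together, all 5 genes passed 2-fold between DKO and WT cells without LPS and 4 of 5 did so with LPS, where 1.45% and 1.78% of all measured genes passed. Without LPS 2 were higher and 3 lower in DKO cells, against 0.466% and 0.984% of all genes, and with LPS 2 were higher and 2 lower, against 0.845% and 0.934%. The choice of the genes fixes these counts, and nothing is read from them. In the same direction past 2-fold in both states were 4 of the 5, where 0.445% of 10787 genes measured in both comparisons did so, and this count too is fixed by the choice. The mark falls inside a continuous range. Of the 4, Pltp lay nearest to it, with 1.14 and 1.27 on the log2 scale. Of the other chromosome 2 genes, Siglec1 passed most narrowly in both states, with 1.01 and 1.05, and AA467197, the nearest chromosome 2 gene that fell short in 1 of the 2 states, had -1.35 without and -0.91 with LPS.

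**Figure D2:**
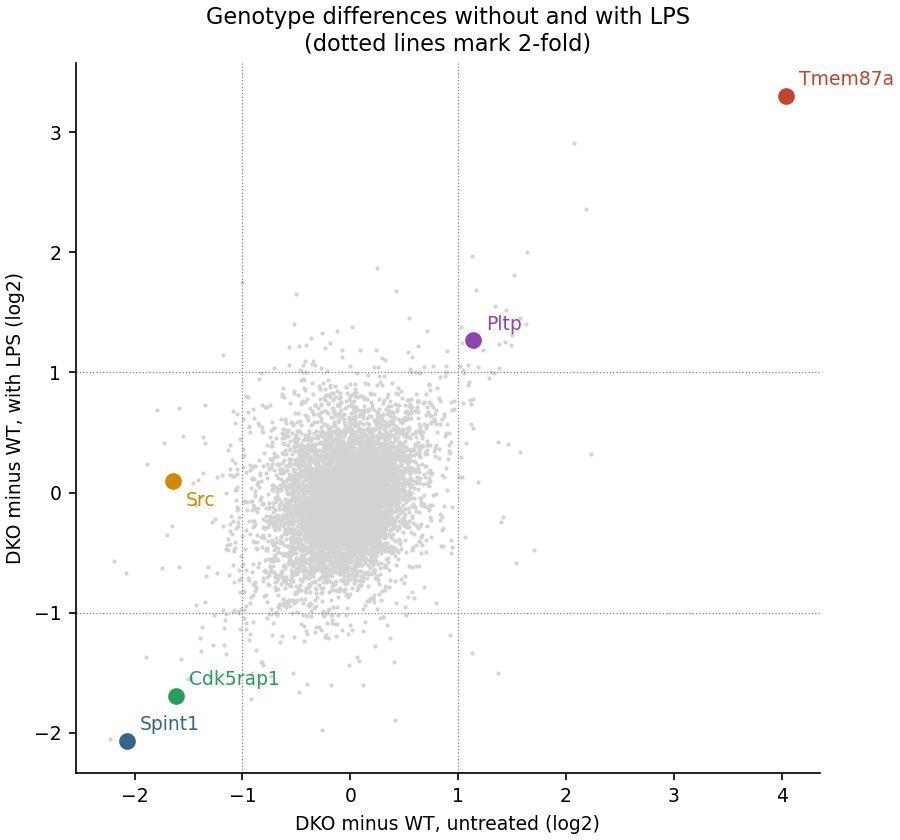
Log2 difference of DKO minus WT cells without LPS (x axis) and with LPS (y axis) for every gene measured in both comparisons, in grey, with the 5 genes coloured and dotted lines at 2-fold. Tmem87a lies farthest out at 4.04 and 3.31, Spint1, Cdk5rap1 and Pltp lie near the diagonal, and Src has a difference of -1.64 without LPS and 0.09 with it.

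The LPS responses are read from the same arrays by which the genes were chosen, so the values that follow are a description too. Of the 5 genes only Src passed 2-fold with LPS, in both genotypes. The background was 9.43% of 11241 genes in DKO cells and 6.77% of 11491 in WT cells, and 4.66% and 3.36% of all genes were higher with LPS as Src was. At 1.5-fold, Spint1 was called beside Src in both genotypes, 2 of 5 against 23.5% of genes in DKO cells and 19.8% in WT cells. At 3-fold, none of the 5 was called in WT cells, against 2.18% of genes. Src was 7.37-fold higher with LPS in DKO cells and 2.21-fold higher in WT cells on its brighter probe set. The dimmer probe set gave at least 5.80-fold in DKO cells and 4.19-fold in WT cells. The difference between the LPS effects was 1.74 on the log2 scale on the brighter probe set, past 2-fold as in 2.03% of 9982 genes (1.31% in its direction). This value equals the genotype difference with LPS minus that without, both of which the choice of genes used, and nothing is read from it. On the dimmer probe set no difference of LPS effects was formed, because 1 of the 4 values lay under the floor.

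For the other 4 genes the LPS effects of the 2 genotypes differed by less than 2-fold, and at 1.5-fold Tmem87a was called beside Src, against 9.63% of genes. The difference, DKO minus WT, was -0.73 for Tmem87a, 0.0051 for Spint1, -0.077 for Cdk5rap1 and 0.13 for Pltp on the log2 scale, against a median of -0.047 over all genes. For scale, the 2 brightest probe sets of a gene, both above the floor on all arrays, gave genotype differences a median of 0.20 apart without LPS and 0.18 with LPS, over 4709 genes. Of 32 such genes past 2-fold without LPS on the brightest probe set, 12 passed on the second as well, and with LPS 15 of 42. Pltp passed on both. Tmem87a, Spint1 and Cdk5rap1 have a single probe set and no second reading in these data.

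Genes of related function passed 2-fold between the genotypes at a share near that of all genes. A difference with 1 side under the floor was counted at its bound, so its true size may be larger. The 8 lists held 94 entries, of which 84 had a probe set of their own. Without LPS 0 of 74 measured were higher and 1 lower in DKO cells, Plaur, and with LPS 0 of 75 were higher and 1 lower, Met, against the 1.45% and 1.78% of all genes. Of the membrane protein family of Tmem87a, which includes the Wnt carrier Wls, 5 genes were measured and none passed 2-fold in either state. The median was 0.12 without and -0.16 with LPS, against -0.017 and -0.040 over all genes. Wls gave 1985 units in untreated DKO cells against 1601 in untreated WT cells, and 1293 against 1238 with LPS. Other probe sets of Wls above the floor stood at -0.24 and 0.0090 without LPS and 0.096 and -0.11 with it. Gpr108 was as level, with 1234 against 1334 units untreated and 1237 against 1124 with LPS. None of 11 measured Golgi tethers and coat proteins passed 2-fold, and their median was 0.14 without and -0.0022 with LPS. Arl1, a small GTPase of the trans-Golgi, and the cargo receptor Tmed10 were the brightest of them, at 1.16-fold and 1.17-fold higher in untreated DKO cells. A second probe set of Arl1 above the floor on every array went the other way, 1.22-fold lower.

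In the protease axis that HAI-1 controls, 8 genes were measured without LPS and 5 with it, with medians of -0.037 and -0.30. The list went both ways. Hgf, the growth factor gene, was higher in DKO cells, at 0.31 without and 0.75 with LPS. Hpn and Plau had untreated bounds of 1.51-fold and 1.35-fold higher, with WT values under the floor. Spint2 was lower, with a bound of 1.11-fold untreated and 1.38-fold with LPS. Met, the receptor of hepatocyte growth factor, gave 32.6 units in untreated DKO cells, under the floor, against 103.5 in untreated WT cells, a bound of 1.96-fold lower. With LPS it gave 167 in DKO cells against 353 in WT cells, 2.12-fold lower. Plaur, the urokinase receptor, gave 409 against 872 units without LPS, 2.13-fold lower, and 1774 against 2095 with LPS. St14, which encodes matriptase, gave 177 against 216 units untreated and 149 against 184 with LPS, short of 2-fold. Hgfac, the growth factor activator, and the protease gene Prss8 lay under the floor on every array.

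Of the transfer RNA modification genes listed with Cdk5rap1, none of 17 measured passed 2-fold in either state, and the medians were -0.16 without and -0.14 with LPS. Yrdc and Pus1 were the brightest, with log2 differences of -0.47 and -0.19 without LPS and -0.14 and -0.24 with it. Nsun3, a methyltransferase gene for mitochondrial transfer RNA, came nearest to the mark in the direction of Cdk5rap1, with 399 units in untreated DKO cells against 766 in untreated WT cells (log2 difference -0.94), and 316 against 522 with LPS (-0.73). Qtrt1, of queuosine synthesis, changed sign, at 0.50 without and -0.75 with LPS. Of CDK5 and its partners 4 were measured and none passed, with Cdk5 at 1153 units in untreated DKO cells against 971 in untreated WT cells, and 1003 against 996 with LPS. A dimmer probe set of Cdk5 gave 131 against 116 units untreated and 99.0 against 133 with LPS. Cdk5r1, which encodes an activator of CDK5, gave 97.9 units in DKO cells with LPS against 30.5, under the floor, in WT cells with LPS, a bound of 1.85-fold higher.

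The lipid transfer list that goes with Pltp had the highest median without LPS of the 8, 0.30 over 10 genes, and 0.096 over 13 with LPS, but no member passed 2-fold. The 8 macrophage markers had medians of 0.32 without and 0.12 with LPS. A median of this size was thus not particular to the lipid list. Lpl, which hydrolyses lipoprotein triglycerides, was 1.23-fold higher in DKO cells untreated and 1.01-fold with LPS, and the receptor gene Lrp1 had log2 differences of 0.25 and -0.24. A second Lrp1 probe set, above the floor on every array, stood at -0.40 and -0.71. Apoe, the apolipoprotein that macrophages secrete, gave 9505 units in untreated DKO cells against 5702 in untreated WT cells, and 7082 against 4516 with LPS. Abca1, the cholesterol exporter, gave 3317 against 1981 units untreated and 8868 against 5911 with LPS. Both are, like Pltp, known targets of LXR, and they had the largest untreated differences of the list. The LXR targets Abcg1 and Srebf1 stood nearer to level, at 0.30 and 0.25 without LPS and 0.26 and 0.10 with it. Mylip and Apoc2, also of this list, both stood at 0.37 without LPS, and at 0.60 and 0.33 with it. Nr1h3, which encodes an LXR receptor, stood at -0.37 without and -0.17 with LPS. Around Src, none of 3 measured family kinases without LPS and none of 4 with LPS passed. Fyn had log2 differences of -0.27 and -0.016, and Fgr of -0.59 and -0.22. Of 16 regulators and substrates of Src none passed in either state, and the medians were 0.044 and 0.13. The phosphatase gene Ptprc stood at 0.23 and 0.15, and the adaptor gene Pxn at 0.050 and -0.049. Other probe sets above the floor stood at -0.070 and -0.12 for Ptprc. For Pxn they stood at -0.31 and -0.10 without LPS and -0.14 and -0.030 with it.

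**Figure D3:**
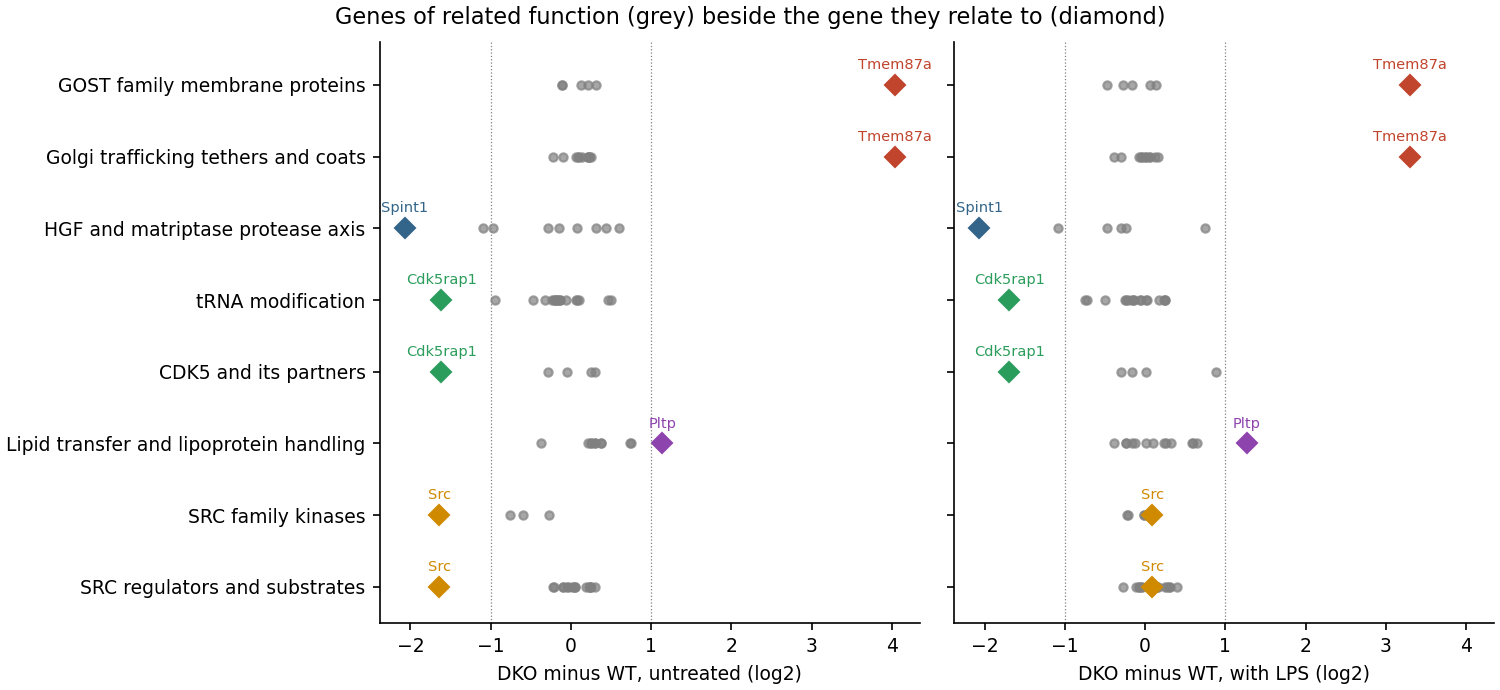
Log2 difference of DKO minus WT cells, untreated (left) and with LPS (right), for the genes of 8 functional lists (grey points, a row per list) and for the gene each list relates to (coloured diamond), with dotted lines at 2-fold. Values with 1 side under the floor are drawn at their bound. Plaur without LPS and Met with LPS lie outside 2-fold, and Met without LPS has a bound of 1.96-fold.

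Along chromosome 2, 947 genes lay above the floor on at least 1 array. In that order Spint1 was number 501, Tmem87a 518, Cdk5rap1 740, Src 793 and Pltp 844. Spint1 and Tmem87a thus had 16 measured genes between them, and the gaps that followed were 221, 52 and 50 genes. Spint1 and Tmem87a differed in opposite directions. Positions are given as order only, because the array annotation names no genome build.

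Of the neighbours of the 5 genes, 4 passed 2-fold in at least 1 state. Among the 5 measured genes on either side of each, 1 of 47 was higher and 1 lower in DKO cells without LPS, 4.26% against 1.45% of all genes, and 0 of 48 higher and 2 lower with LPS, 4.17% against 1.78%. These shares rest on 2 genes each. Their median log2 difference was -0.042 without and -0.032 with LPS, and the median size was 0.18 and 0.19, against 0.17 and 0.17 over all genes. The 4 neighbours past 2-fold in a state lay around Spint1 and Tmem87a. None of the neighbours of Cdk5rap1, Src or Pltp passed in either state.

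Next to Spint1, Chac1, which encodes a glutathione-degrading enzyme induced by stress, gave 64.96 units in untreated DKO cells against 204 in untreated WT cells, 3.14-fold lower, and 401 against 486 with LPS. Gchfr, a regulator of the enzyme that starts tetrahydrobiopterin synthesis, gave 111 units in untreated DKO cells against 9.43, under the floor, in untreated WT cells, at least 2.10-fold higher. With LPS it gave 87.9 against 66.2. Rhov, a small GTPase gene, was level without LPS at 415 against 416 units and 2.14-fold lower with LPS, 65.2 in DKO cells against 139.9 in WT cells. Near Tmem87a, the transcription factor gene Mga was 1.60-fold lower without LPS and 2.03-fold lower with LPS on its brightest probe set. The 2 further probe sets of Mga that passed the floor on every array gave 1.12-fold and 1.02-fold lower with LPS, so its probe sets disagree. The genes adjoining Tmem87a, Vps39 before it and Ganc after it, stood at 0.47 and 0.13 without LPS and 0.31 and -0.40 with it.

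**Figure D4:**
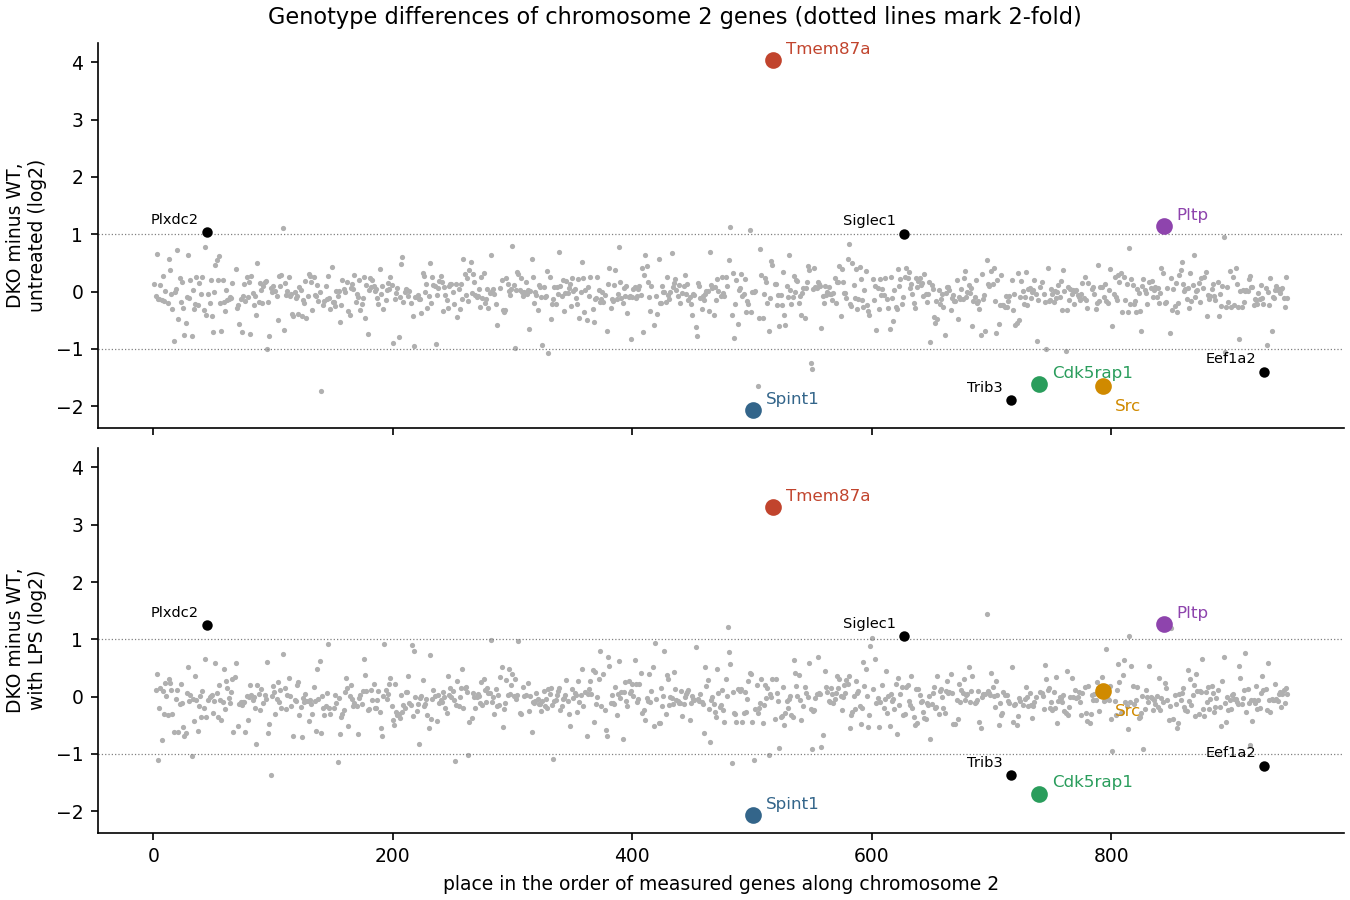
Log2 difference of DKO minus WT cells, untreated (top) and with LPS (bottom), for the measured genes of chromosome 2 in their order along it, with the 5 genes coloured, the 4 other genes past 2-fold in both states in black, and dotted lines at 2-fold. Values with 1 side under the floor are drawn at their bound. The 5 genes lie outside 2-fold, except Src with LPS at 0.09, while most genes around them scatter near 0.

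Chromosome 2 held 8 genes past 2-fold in the same direction in both states, the 4 named above and 4 others. Trib3, a stress-induced pseudokinase gene, gave 164 units in untreated DKO cells against 612 in untreated WT cells and 202 against 524 with LPS, and its second probe set was likewise 3.70-fold and 2.59-fold lower. Eef1a2, a translation elongation factor gene, gave 272 against 718 and 261 against 603 units. Plxdc2, which encodes a membrane protein, was higher, with 1137 against 555 and 1059 against 448 units. Another probe set above the floor on every array was 1.63-fold higher without LPS, short of 2-fold, and 2.25-fold higher with LPS. The dimmest probe set of Plxdc2, under the floor in WT cells, gave bounds of 1.53-fold and 1.73-fold higher. Siglec1, the sialic acid receptor of tissue macrophages, was 2.02-fold and 2.08-fold higher, but a second probe set that passed the floor on every array gave 1.04-fold lower and 1.39-fold higher. The dimmest probe set of Siglec1, under the floor in untreated WT cells, gave a bound of 1.26-fold higher without LPS. With LPS it was 1.12-fold lower, at 56.0 units in DKO cells against 62.4 in WT cells.

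As a share of measured genes, the 8 were 0.917% of 872, number 3 among the chromosomes, after chromosome 16 with 5 of 337 (1.48%) and chromosome 12 with 4 of 388 (1.03%). All other chromosomes together had 40 of 9891 (0.404%). With the 5 genes taken out, chromosome 2 had 4 of 867 (0.461%). The 5 were chosen for these differences, so taking them out lowers the share by construction, and nothing is read from it. Chromosome 3, which holds Hey1, had 3 of 512 (0.586%). The choice of 5 genes from chromosome 2 does not bear on the shares elsewhere, and the shares were not tested.

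**Figure D5:**
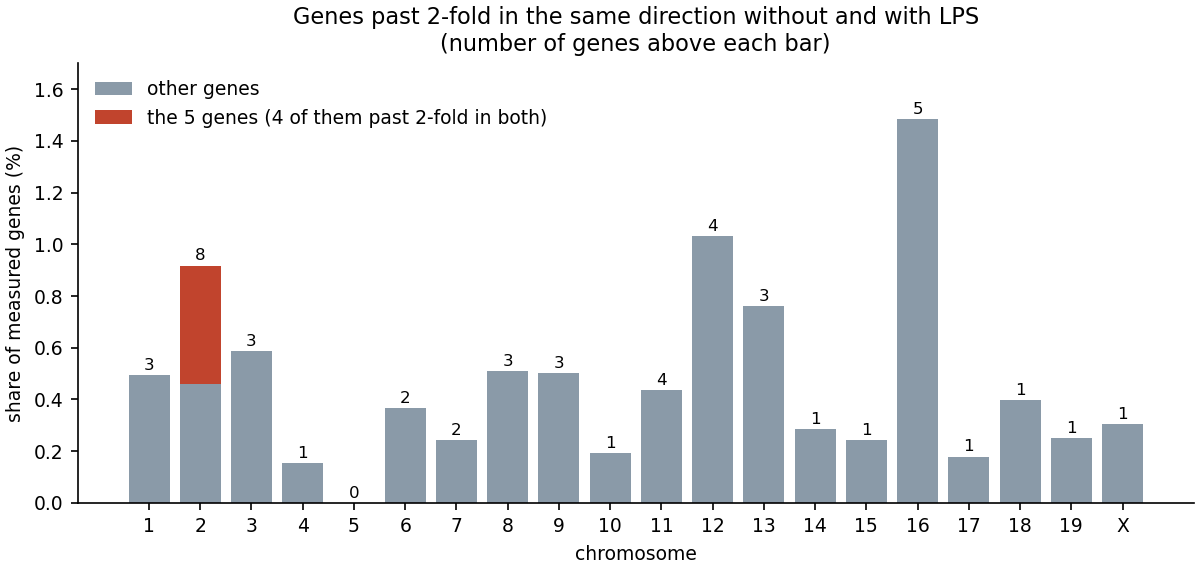
Share of measured genes (%) past 2-fold between DKO and WT cells in the same direction without and with LPS, by chromosome, with the number of genes above each bar and the 4 of the 5 genes that qualify in red. Chromosome 2 has 8 genes, 4 of them from the set, and chromosome 16 the largest share at 1.48%.

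The genes whose profile was closest to each of the 5 were found by the root mean square distance of log2 values, centred per gene, over the 4 arrays, among 9981 other genes above the floor on all of them. With 4 arrays this is a description, and because the 5 genes were chosen for a genotype difference, close profiles share it by construction. Within a distance of 0.25 lay 25 genes for Pltp, 8 for Cdk5rap1, 4 for Src, 1 for Spint1 and 0 for Tmem87a. For Spint1 the closest was Cdk5rap1, at a distance of 0.24, followed by Cd24a (0.29), a sialylated surface glycoprotein gene, and the chemokine receptor gene Ccr1 (0.31). Cd24a (0.063) and Ccr1 (0.077) were also the closest to Cdk5rap1, followed by the growth factor receptor gene Fgfr1 (0.15). Cd24a gave 1405 units in untreated DKO cells against 3995 in untreated WT cells, and 954 against 2800.2 with LPS, and its other probe sets were 2.42-fold to 3.28-fold lower. The dimmer probe set of Ccr1 was under the floor in DKO cells and bounded the difference at 2.08-fold lower without and 1.33-fold lower with LPS.

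Pltp was closest to Plxdc2, also on chromosome 2, at 0.058, to Ltbp2 (0.060), a matrix protein gene, and to Fcrls (0.092), an Fc receptor-like gene. Ltbp2 gave 141 units in untreated DKO cells against 60.3 in untreated WT cells, and 136 against 59.7 with LPS. For Src the closest was Chac1 (0.14), the neighbour of Spint1, followed by the collagenase gene Mmp13 (0.21) and Dnmt3l (0.21). Chac1 was 6.17-fold higher with LPS in DKO cells and 2.39-fold higher in WT cells, and Mmp13 5.74-fold and 3.07-fold. Nothing matched Tmem87a as closely. The desaturase gene Scd1 came nearest at 0.77, followed by the adhesion gene Nectin3 (0.97) and Gm4951 (1.10).

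Some markers of other cell types were lower in DKO cells, as Spint1 and Cdk5rap1 were, and others were not. Of 10 markers of granulocyte and monocyte progenitors, 6 lay under the floor on every array (Flt3, Mpo, Elane, Prtn3, Ctsg and Myb). The summed level of the list was 727 units in untreated DKO cells against 1308 in untreated WT cells, and 676 against 980.1 with LPS. The list member past 2-fold was Cd34, with 361 against 876 units untreated and 229 against 552 with LPS, and it makes up most of the untreated gap between the sums. Kit gave 155 against 161 units untreated and 96.9 against 145 with LPS, and Gata2 gave 91.0 against 98.3 and 112 against 113. Of 4 neutrophil markers, Mmp8 gave 1072 against 1612 units untreated and 588 against 1119 with LPS, and the other 3, Camp, Ltf and Ngp, lay under the floor on every array. The list summed to 1133 against 1672 units without and 649 against 1222 with LPS. Of 7 epithelial markers 5 lay under the floor on every array. All 7 together summed to 223 against 321 units without LPS and 173 against 259.8 with it. Values under the floor enter these sums and carry much of the untreated gap. Untreated, Krt18 gave 3.01 against 40.1 units and Cldn4 3.54 against 40.2, all under the floor, so nothing is read from the sums. Epcam gave 119 against 138 units untreated and 41.6, under the floor, against 112 with LPS. The osteoclast list, a cell type in which Src is known to be needed for bone resorption, summed to 986 units in untreated DKO cells against 1599 in untreated WT cells, and 811 against 1651 with LPS. Ctsk gave 514 against 1096 and 365 against 1089 units and carries most of these gaps. Dcstamp gave 18.4, under the floor, against 92.6 units untreated and 73.5 against 199 with LPS. Acp5 was not lower, with 409 against 336 and 356 against 341 units, while Calcr and Oscar were under the floor on every array. The part of such cells in the differences was not tested. In RNA of a whole culture, fewer cells of a type and less RNA per cell cannot be told apart.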

How the data were processed

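Affymetrix arrays of 45101 probe sets, 1 for each of 4 groups, were read as deposited. The authors' intensities are linear, and with 2% trimmed from both tails every array averaged 500.0; the software was not given in the sources used here. Total RNA was amplified and labelled with biotin, per the labels' protocols. Such scaling does not level dim probe sets: array medians were 51.0 units in untreated DKO, 59.1 in untreated WT, 50.8 in DKO with LPS and 50.9 in WT with LPS. Bacterial control probe sets reached at most 46.0 units.

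After 64 control probe sets were dropped, 34945 had 1 gene, 932 several and 9160 none listed. Symbols of 34741 were updated through Entrez identifiers with RefSeq GRCm38.p6, also the source of gene order and promoters. A gene's value is its brightest probe set. Samples were grouped by title, and log2 differences with a floor of 52.9 units were called past 2-fold, untested. The code was tested on simulated data. Alternatives covered scaling, floor, probe set choice, threshold, neighbour number and promoter window.

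The 5 genes, the lists and the rules were chosen with earlier results of these data known. Named were the 5 genes, Hes1 and Hey1, the 3 closest profiles of each, neighbours and chromosome 2 genes past 2-fold, and from each list genes past 2-fold and the 2 brightest. Genes named beyond this, such as AA467197, Vps39, Ganc, St14, Nsun3, Qtrt1, Cdk5r1, Apoe, Abca1, Abcg1, Srebf1, Mylip, Apoc2, Nr1h3, Hgfac, Prss8, Hgf, Hpn, Plau, Spint2 and single markers, were chosen after their values were seen. Tools were Python 3.11.15, numpy 2.4.6, pandas 2.3.3, R 4.3.3 and limma 3.58.1, the last for quantile and loess scaling.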

Additional observations from a re-analysis of the deposited data

Results flagged for a closer look

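Among the 5 genes, their neighbours past 2-fold in a state and the other chromosome 2 genes past 2-fold in both states, 4 genes had effects of opposite sign under the same contrast, each from 1 array per group, and none of these differences was tested. The LPS effect on Tmem87a was -0.32 on the log2 scale in DKO cells and 0.42 in WT cells. The genotype difference of Src, DKO minus WT, was -1.64 without LPS and 0.09 with LPS. On its dimmer probe set it was -0.059 with LPS, so the sign did not change there. The LPS effect on Gchfr was -0.34 in DKO cells and a bound of 0.32 in WT cells, where the untreated value lay under the floor. The LPS effect on Trib3 was 0.30 in DKO cells and -0.22 in WT cells, and on its second probe set 0.50 and -0.018. Apart from Src without LPS and the bound for Gchfr, whose size above the bound is unknown, these effects were short of 2-fold.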

How the results depend on the processing

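Of 194 recomputed log2 differences of the 5 genes under 8 alternatives of scaling, floor and probe set choice, 191 kept their side of the 2-fold mark, 3 fell short of it and 0 changed the direction of a called difference. The 3 were Src without LPS with the floor at the 65th percentile (-0.87, a bound) and with probe sets shared between transcripts left out (-0.53, a bound), and Spint1 with LPS with that higher floor (-0.82, a bound); in each, a DKO value came to lie under the floor. Many of the 194 could not move. All 5 genes lay above the main floor on every array, so the floor at the 35th percentile returned the same values. For Tmem87a, Spint1 and Cdk5rap1, with a single probe set, so did both alternatives of probe set choice. The count of 191 is therefore no measure of how stable the differences are. Tmem87a ranged from 2.68 to 4.25 without LPS and from 2.37 to 3.34 with it, the lowest values being bounds at the higher floor. Setting array medians equal put the all-gene median without LPS at 0.19 in place of -0.017, and relative to that median the 5 differences were 4.06, -2.05, -1.60, 1.16 and -1.62 for Tmem87a, Spint1, Cdk5rap1, Pltp and Src. The count of genes past 2-fold in the difference of LPS effects, 1 of the 5, was 0 with the higher floor and with shared probe sets left out, where Src had no value above the floor on all arrays. At 1.5-fold 2 of the 5 were called for LPS in DKO cells, 2 for LPS in WT cells and 2 for the difference of LPS effects, and at 3-fold 0 for LPS in WT cells. Chromosome 2 genes past 2-fold in both states, 8 as reported, were 13 with the floor at the 35th percentile and 17 with no floor and an offset of 16 units. All genes called between genotypes were then 4.70% and 5.74% without LPS and 4.56% and 5.74% with LPS, or 0.69% and 0.83% with the higher floor. With 10 neighbours on either side, 2 of 91 and 3 of 92 passed. In the last 100 bases before the start, a shorter window, 0 of the 5 promoters held a motif, against 22.3% of all windows. No paired analysis was possible because each group has 1 array. The signal over background limits Tmem87a in WT cells and Spint1 and Src in DKO cells, whose readings lie nearest the floor.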

Other observations

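Several other chromosome 2 genes read in the same direction in both states without passing 2-fold in both, and were chosen after their values were seen. Mrc1, the mannose receptor gene, gave 3379.6 units in untreated DKO cells against 1966 in untreated WT cells, and 2791 against 1773 with LPS. Fcna, a ficolin gene, gave 1510.1 against 697 and 1205 against 723 units. Zbp1, a nucleic acid sensor gene, gave 897 against 462 and 1093 against 676 units. All 3 were higher in DKO cells, as Pltp was. Slc43a3, a purine transporter gene, was lower, with 566 against 916 and 761 against 1232 units. AA467197, Itga8, Hao1, Sfmbt2, Mga and Dbh were also lower in both states, some as bounds, and Tox2 and Rnd3 were higher. Nothing is read from the balance of directions.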
